A study of Mus musculus with 6 samples.

Results

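Integrin subunits, the proteins that join integrins to the cytoskeleton, and the cross-linkers of actin filaments were followed in primary mouse hepatic stellate cells on days 1, 4 and 7. Genes were taken by symbol, either an integrin alpha or beta subunit or 1 of 25 listed adhesion and actin genes, when 2 or more of the 6 libraries reached 1 TPM. TPM is an abundance of transcripts per length, scaled to a fixed library total. Of 52 genes with such a symbol, 44 met the minimum, 19 integrin subunits and all 25 listed genes, among 14373 genes of the series that met it. They held 0.312% to 0.419% of all TPM in a library. The cells were labelled as primary liver cells, and the series followed their activation. Each day had 2 libraries of ribosome-depleted total RNA, numbered 2 and 3 on day 1 and 1 and 2 on days 4 and 7, and these numbers serve only as names. The labels give no strain, age, treatment or starting event for the days, and they leave out whether animals or cultures differed between the libraries of 1 day. The p-values therefore reflect the spread among libraries alone, which may be technical.

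Integrins are receptors made of 1 alpha and 1 beta subunit that span the cell membrane. Outside the cell they bind collagen, fibronectin, laminin, vitronectin or counter-receptors on other cells, and inside the cell the beta tail binds talin and kindlin, which switch the receptor on. Talin and kindlin then recruit vinculin, paxillin, focal adhesion kinase and the ILK-PINCH-parvin complex, and alpha-actinin and filamin tie these focal adhesions to actin bundles. In liver, stellate cells use collagen-, fibronectin- and latent TGF-beta-binding integrins, while Kupffer cells and other leukocytes carry the beta 2 and beta 7 families.

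The libraries held RNA of several liver cell types. Of 17 tested stellate cell markers 13 rose between day 1 and day 4 and none fell, and 13 rose and 1 fell between day 1 and day 7. All 18 listed summed to 338 to 356 TPM on day 1, 2255 to 2324 TPM on day 4 and 2176 to 2315 TPM on day 7. Much of the day 4 sum lay in Dcn (611 and 628 TPM), Tagln (541 and 559 TPM) and Acta2 (465 and 504 TPM). Day 1 levels differed among the markers, with 0.49 and 0.50 TPM for Lrat, the retinyl ester enzyme of stellate cells, 63.4 and 60.2 TPM for Hgf, and 132 and 87.8 TPM for Dcn. The 18 macrophage markers summed to 11498 to 14483 TPM on day 1, 28061 to 28114 TPM on day 4 and 27011 to 29393 TPM on day 7, and 12 rose and 2 fell between day 1 and day 4. The pan-leukocyte gene Ptprc had 147 and 126 TPM on day 1, 178 and 172 TPM on day 4, and 144 and 150 TPM on day 7. The 11 endothelial markers summed to 1353 and 1486 TPM on day 1, 1579 and 1538 TPM on day 4, and 1459 and 1467 TPM on day 7. Between day 1 and day 4, 5 of these 11 markers rose and 2 fell. In these bulk samples, fewer cells of a type and less RNA per cell cannot be told apart. The part of macrophage and endothelial RNA in the results below was not tested. Satellite-like gene models took 0.0594% to 0.0913% of TPM in the 4 later libraries, against 17.4% and 26.2% in the day 1 libraries, so the main changes are also given after rescaling with these models left out. The pair of day 1 libraries also differed. Day 1 replicate 3 had at least 1.5 times the TPM of replicate 2 for 10 of the 44 genes and the reverse held for none, beside 16.3% and 9.62% of all genes tested.

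Most changes in adhesion genes lay between day 1 and day 4. Of the 44 genes, 21 rose and 3 fell on day 4 against day 1, and 18 rose and 6 fell on day 7 against day 1 (limma, adjusted p under 0.05 over all genes). Among all 14373 genes 25.0% were called higher and 11.6% lower on day 4, and 24.7% higher and 16.8% lower on day 7. On day 7 against day 4, 1 gene fell and none rose, where 0.16% of all genes were called lower and 0.306% higher. In that limma comparison 11 of the 44 had an unadjusted p under 0.05, beside 1705 of all 14373 genes. Both directions together, 36.6% of all genes were called on day 4 and 41.4% on day 7 against day 1, and 0.466% on day 7 against day 4. Over the 3 days a moderated F test called 24 of the 44, against 37.2% of all genes. Both day 4 libraries lay above both day 1 libraries for 24 genes and below them for 8, where all genes gave 43.0% and 27.8%. On day 7 the counts against day 1 were 25 above and 8 below, beside 39.3% and 33.0% of all genes, and against day 4 they were 16 above and 17 below, beside 18.8% and 33.9%. The split depended on the scaling. With the satellite-like models left out, 14 rose and 8 fell on day 4 and 15 rose and 9 fell on day 7. Over all genes 37.7% of the calls in that setting were higher on day 4 and 32.5% on day 7. Among the 44 these shares were 63.6% and 62.5%. After median-ratio scaling 16 of the 44 rose and 7 fell on day 4, beside 2779 and 2331 of all 14373 genes. After quantile normalization 17 of the 44 rose and 7 fell on day 4, beside 2839 and 2504 of all genes. Those of the 44 called under all 4 scalings were 14 higher and 3 lower on day 4, and 15 higher and 6 lower on day 7. The same count over all genes was not made. Leaving out 1 library changed the number of calls against day 1, among the 44 and among all genes, and left 1 library on its day. The comparisons with day 1 share its libraries, so they are not independent of each other.

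**Figure D1:**
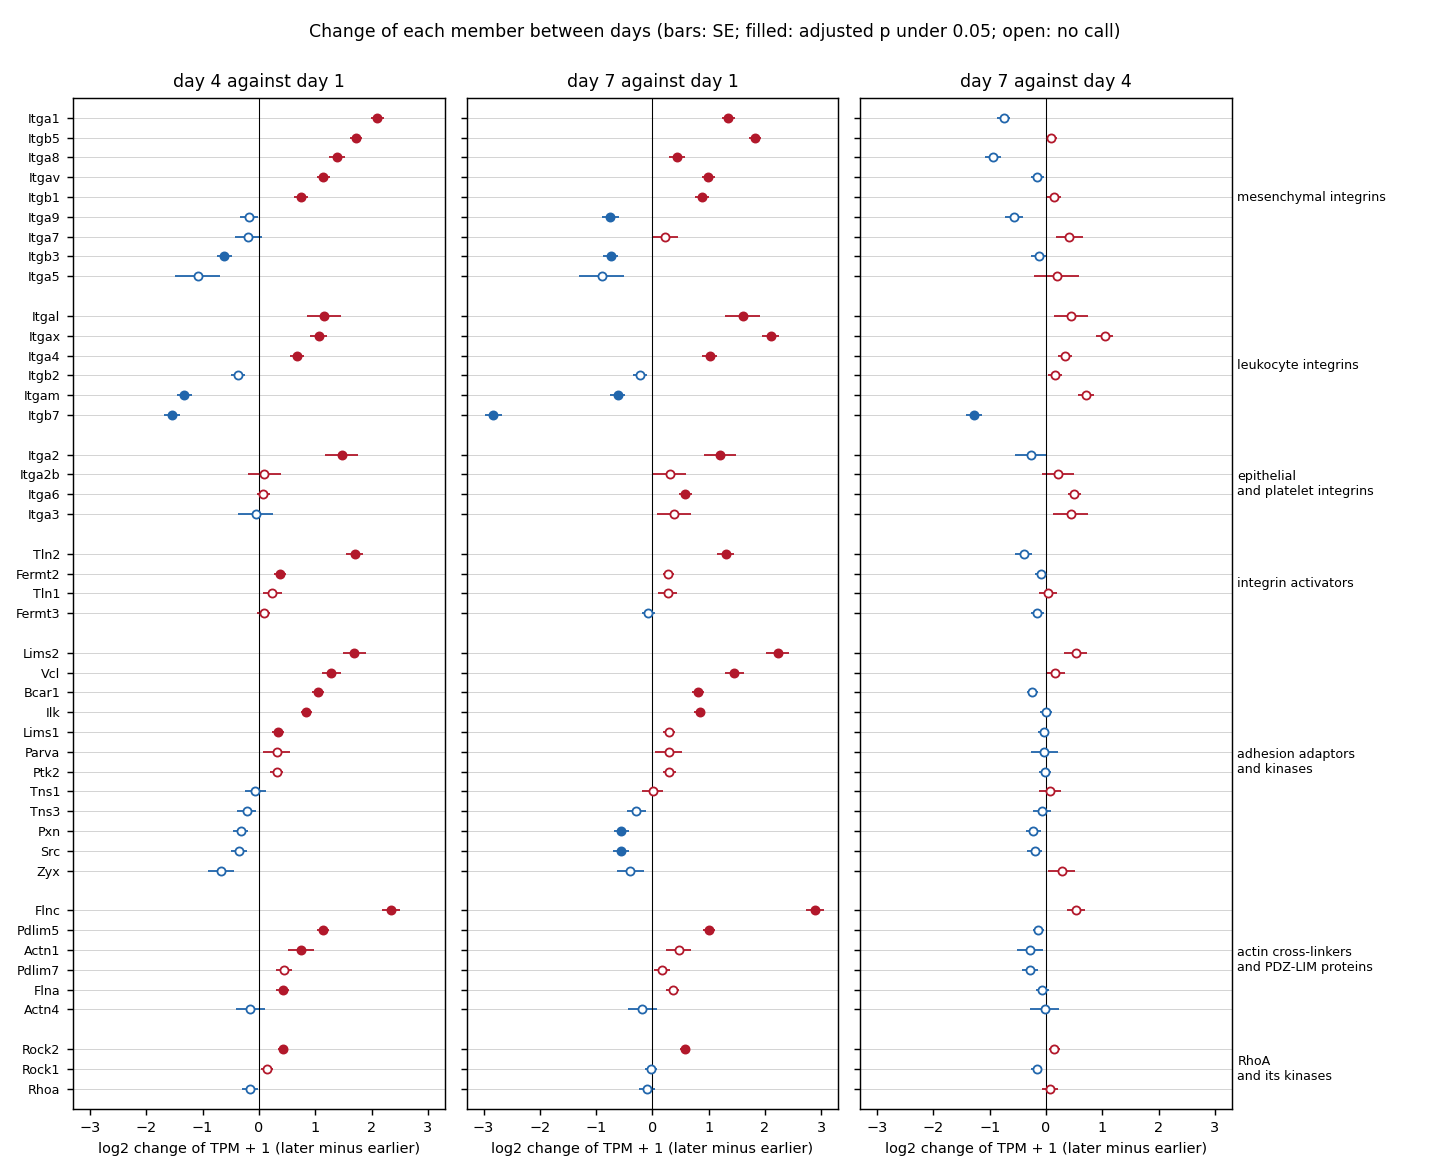
Log2 change of TPM + 1, later day minus earlier day, for the 44 genes by group in the 3 comparisons, with bars for the standard error and filled points for adjusted p under 0.05. Filled points to the right outnumber those to the left against day 1 (21 and 3 on day 4, 18 and 6 on day 7), and 1 filled point, Itgb7, appears on day 7 against day 4.

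For 9 measured integrins grouped as mesenchymal, the cell source of the RNA was not tested. Of these 9 integrins, 5 rose and 1 fell on day 4. Their median log2 change was 0.75, beside 0.32 for 16 adaptors, 0.15 for 6 leukocyte integrins and 0.11 for all genes. Without the satellite-like models these medians were 0.39, -0.03, -0.19 and -0.21. On day 7 against day 1, as deposited, the medians in the same order were 0.44, 0.29, 0.40 and 0.04. The collagen receptor subunit gene Itga1 (chromosome 13, 114953096 to 115101964 on GRCm38) had 8.60 and 8.35 TPM on day 1, 37.6 and 41.9 TPM on day 4, and 23.6 and 22.7 TPM on day 7. All later libraries lay above day 1, and day 4 lay above day 7. Its log2 change was 2.10 on day 4 (SE 0.11, adjusted p = 9.36e-05) and 1.35 on day 7 (adjusted p = 0.000382), or 1.78 and 1.03 without the satellite-like models.

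Itga8, whose protein pairs with beta 1 and binds nephronectin and fibronectin, followed the same course at a lower level. It had 4.00 and 3.99 TPM on day 1, 12.7 and 11.3 TPM on day 4, and 5.66 and 5.90 TPM on day 7. The day 4 increase was 1.38 (SE 0.14, adjusted p = 0.000943). The day 7 increase of 0.44 (adjusted p = 0.0465) missed the threshold after each of the 3 rescalings (adjusted p = 0.0669 to 0.443) and without any single library (adjusted p = 0.053 to 0.185).

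The subunits of the vitronectin and latent TGF-beta receptor alpha v beta 5 both rose and stayed high. Itgb5 (chromosome 16, 33829665 to 33949338) had 63.3 and 61.2 TPM on day 1, 211 and 206 TPM on day 4, and 228 and 218 TPM on day 7. Its log2 change was 1.73 on day 4 (SE 0.10, adjusted p = 0.000126) and 1.82 on day 7 (adjusted p = 8.45e-05), or 1.38 and 1.47 without the satellite-like models. Itgav (chromosome 2, 83724397 to 83806916) had 51.2 and 57.5 TPM on day 1, 124 and 119 TPM on day 4, and 115 and 103 TPM on day 7. It rose by 1.14 on day 4 (SE 0.11, adjusted p = 0.000899) and 0.99 on day 7 (adjusted p = 0.00128), or 0.79 and 0.64 without the satellite-like models. No later library of either gene overlapped day 1.

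Itgb1, the common beta subunit of collagen, fibronectin and laminin receptors, was the most abundant integrin RNA on every day. It had 353 and 335 TPM on day 1, 574 and 581 TPM on day 4, and 656 and 614 TPM on day 7. The increase was 0.75 on day 4 (SE 0.12, adjusted p = 0.00584) and 0.88 on day 7 (adjusted p = 0.00269). Rescaled without the satellite-like models it was 0.39 and 0.53, still called. Leaving out day 4 replicate 1 (adjusted p = 0.0697) or day 4 replicate 2 (adjusted p = 0.0763) ended the day 4 call.

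Other mesenchymal subunits were lower on the later days or showed no call. Itgb3, the other vitronectin receptor beta subunit and also the platelet and endothelial one, had 41.0 and 51.7 TPM on day 1, 30.3 and 29.2 TPM on day 4, and 26.5 and 27.8 TPM on day 7. It fell by 0.61 on day 4 (adjusted p = 0.0165) and by 0.74 on day 7 (adjusted p = 0.00757), or by 0.97 and 1.09 without the satellite-like models. Leaving out either day 4 library ended the day 4 call (adjusted p = 0.0849 and 0.105), and leaving out either day 7 library ended the day 7 call (adjusted p = 0.0651 and 0.0522). Beside it, both tested genes of 6 platelet markers, Pf4 and Ppbp, fell on day 4, and on day 7 Ppbp fell while Pf4 was not called, with 708 and 829 TPM on day 7 against 1120 and 799 TPM on day 1. The other 4, Gp5, Gp9, Gp1ba and Treml1, were under 1 TPM in each library, and Gp1ba was higher in every later library, with 0.61 to 0.95 TPM, against 0.23 and 0.49 TPM on day 1. Their part in the change of Itgb3 was not tested.

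Itga9, a tenascin-C and osteopontin receptor subunit, had 91.2 and 120 TPM on day 1, 91.9 and 92.9 TPM on day 4, and 57.7 and 66.4 TPM on day 7. It fell by 0.75 on day 7 against day 1 (SE 0.16, adjusted p = 0.0122), and the call was lost without day 7 replicate 1 (adjusted p = 0.0968) or replicate 2 (adjusted p = 0.054). The fibronectin receptor subunit gene Itga5 had 26.4 and 68.5 TPM on day 1, 18.9 and 20.1 TPM on day 4, and 22.2 and 22.5 TPM on day 7. Every later library lay below day 1, yet the day 1 libraries differed 2.60-fold and neither comparison was called (log2 change -1.09 on day 4, SE 0.40, adjusted p = 0.0741). The day 4 change was -1.76 (adjusted p = 0.000166) with day 1 replicate 2 left out and -0.42 (adjusted p = 0.0267) with day 1 replicate 3 left out. Itga7, the laminin receptor subunit of muscle, stayed between 0.78 and 1.87 TPM.

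**Figure D2:**
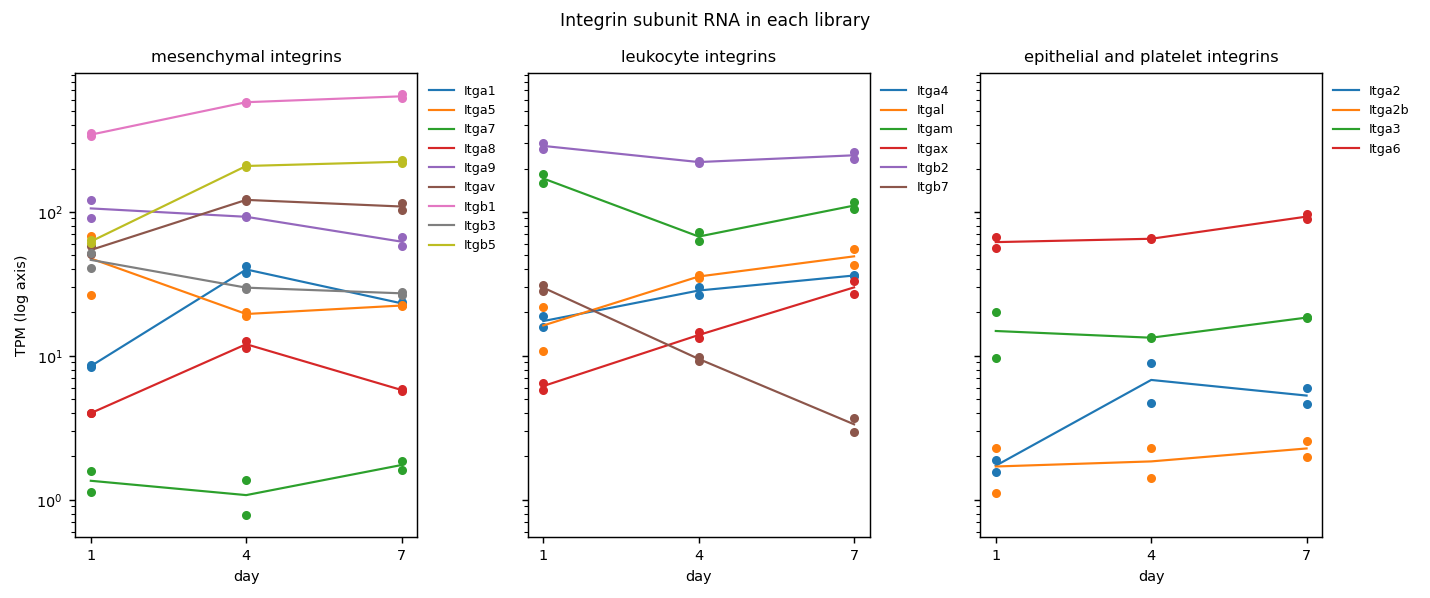
TPM of each integrin subunit on a log axis against day, with 1 point per library and lines through the mean of each day, in 3 groups. Itga1 and Itga8 peak on day 4, Itgb5 and Itgav stay high from day 4, Itgax climbs over all 3 days and Itgb7 drops over all 3 days.

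Leukocyte integrins moved apart. Of 6 measured, Itgal, Itgax and Itga4 rose, Itgam and Itgb7 fell, and Itgb2 was not called, in each comparison with day 1. Itgam, the alpha M subunit (CD11b) of the complement receptor of macrophages and neutrophils, had 157 and 184 TPM on day 1, 62.5 and 72.3 TPM on day 4, and 105 and 116 TPM on day 7. It fell by 1.33 on day 4 (SE 0.14, adjusted p = 0.000981) and by 0.62 on day 7 (adjusted p = 0.0144), or by 1.68 and 0.97 without the satellite-like models. The day 7 call was lost without day 7 replicate 1 (adjusted p = 0.11) or day 7 replicate 2 (adjusted p = 0.0651). The model Gm49368 overlaps 68.7% of the Itgam exon bases on the same strand (GENCODE M21) and held 1.35 to 4.42 TPM, so reads could be split between them and the value of Itgam is uncertain.

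Itgax, the alpha X subunit (CD11c) of dendritic cells and some macrophages, went the other way. It had 5.82 and 6.49 TPM on day 1, 14.7 and 13.2 TPM on day 4, and 26.7 and 33.0 TPM on day 7, with no overlap between days. It rose by 1.06 on day 4 (SE 0.15, adjusted p = 0.00342) and 2.10 on day 7 (adjusted p = 0.00021), or 0.75 and 1.79 without the satellite-like models. Of 5 tested dendritic cell markers 3 fell and none rose on day 4. All 7 listed dendritic cell markers summed to 35.0 to 48.3 TPM on day 1, 13.9 to 16.0 TPM on day 4 and 9.75 to 11.04 TPM on day 7. Within each library Itgam stood 27.0 and 28.3 times above Itgax on day 1, 4.25 and 5.48 times on day 4, and 3.93 and 3.52 times on day 7, and this ratio does not depend on the scaling of a library.

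Itgal, the alpha L subunit of the ICAM receptor LFA-1, had 10.8 and 21.7 TPM on day 1, 36.2 and 34.9 TPM on day 4, and 42.5 and 55.6 TPM on day 7. It rose by 1.16 on day 4 (SE 0.31, adjusted p = 0.0295) and 1.60 on day 7 (adjusted p = 0.00901). The day 4 call was lost without the satellite-like models (0.82, adjusted p = 0.116) and without any one of the 4 later libraries (adjusted p = 0.0622 to 0.119), and the day 7 call without day 7 replicate 2 (adjusted p = 0.0738). Itga4, the VCAM-1 receptor subunit, had 16.0 and 18.9 TPM on day 1, 26.6 and 30.2 TPM on day 4, and 36.3 and 36.0 TPM on day 7. It rose by 0.68 on day 4 (adjusted p = 0.00972) and 1.01 on day 7 (adjusted p = 0.00185), and the day 4 call was lost without the satellite-like models (0.34, adjusted p = 0.139) or without day 4 replicate 2 (adjusted p = 0.0852).

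Itgb7, the beta subunit that pairs with alpha 4 and alpha E on lymphocytes and dendritic cells, had the largest decrease of the 44 genes against day 1. It had 31.2 and 28.2 TPM on day 1, 9.27 and 9.74 TPM on day 4, and 3.72 and 2.96 TPM on day 7, with no overlap between days. It fell by 1.55 on day 4 (SE 0.15, adjusted p = 0.000728) and by 2.83 on day 7 (adjusted p = 6.62e-05), or by 1.89 and 3.18 without the satellite-like models. On day 7 against day 4 it fell by 1.28 (SE 0.15, adjusted p = 0.0376), a call lost without any one of the 4 later libraries (adjusted p = 0.329 to 0.4). The 10 listed markers of T and NK cells summed to 43.2 to 47.0 TPM on day 1, 21.8 to 21.9 TPM on day 4 and 9.19 to 10.2 TPM on day 7. Of these, 8 were tested, with 2 called lower and none higher on day 4. The 6 listed B cell markers summed to 68.6 to 69.0 TPM on day 1, 26.9 to 30.1 TPM on day 4 and 12.1 to 12.4 TPM on day 7. Of these, 3 were tested, with 2 called lower and 1 higher on day 4. The part of lymphocyte RNA in the change of Itgb7 was not tested.

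Itgb2, the common beta 2 subunit, had 301 and 273 TPM on day 1, 227 and 217 TPM on day 4, and 233 and 262 TPM on day 7. Every later library lay below day 1, with log2 changes of -0.37 (SE 0.13, adjusted p = 0.0619) and -0.22 (adjusted p = 0.207). The day 4 change was called lower after median-ratio scaling (-0.52, adjusted p = 0.021) and with the satellite-like models left out (-0.73, adjusted p = 0.00374), and on day 7 it was -0.57 with them left out (adjusted p = 0.00655). Leaving out day 1 replicate 2 or 3 also gave a day 4 call (adjusted p = 0.0359 and 0.0149).

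The make-up of integrin RNA was compared within each library, where scaling has no effect. Itgb2 made up 38.2% and 36.4% of beta subunit TPM on day 1, 21.6% and 20.8% on day 4, and 20.3% and 23.3% on day 7. Itgb5 made up 8.02% and 8.16% on day 1, 20.1% and 19.7% on day 4, and 19.9% and 19.4% on day 7. Itgb1 held 44.7% in both day 1 libraries and 54.6% to 57.2% in the later ones. The day 1 and later libraries did not overlap for any of these 3 subunits, while day 4 and day 7 overlapped for all 3. Among alpha subunits, Itgam led on day 1 with 35.7% and 31.6%, and Itgav led on day 4 with 24.1% and 22.7%. On day 7 Itgav held 20.6% and 17.8% and Itgam 18.8% and 20.1%, and their ranges overlapped. Summed over subunits, leukocyte integrins stood at 0.817 and 0.752 of mesenchymal integrins on day 1, 0.341 and 0.342 on day 4, and 0.393 and 0.467 on day 7. These shares and ratios were given as a description and were not tested.

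**Figure D3:**
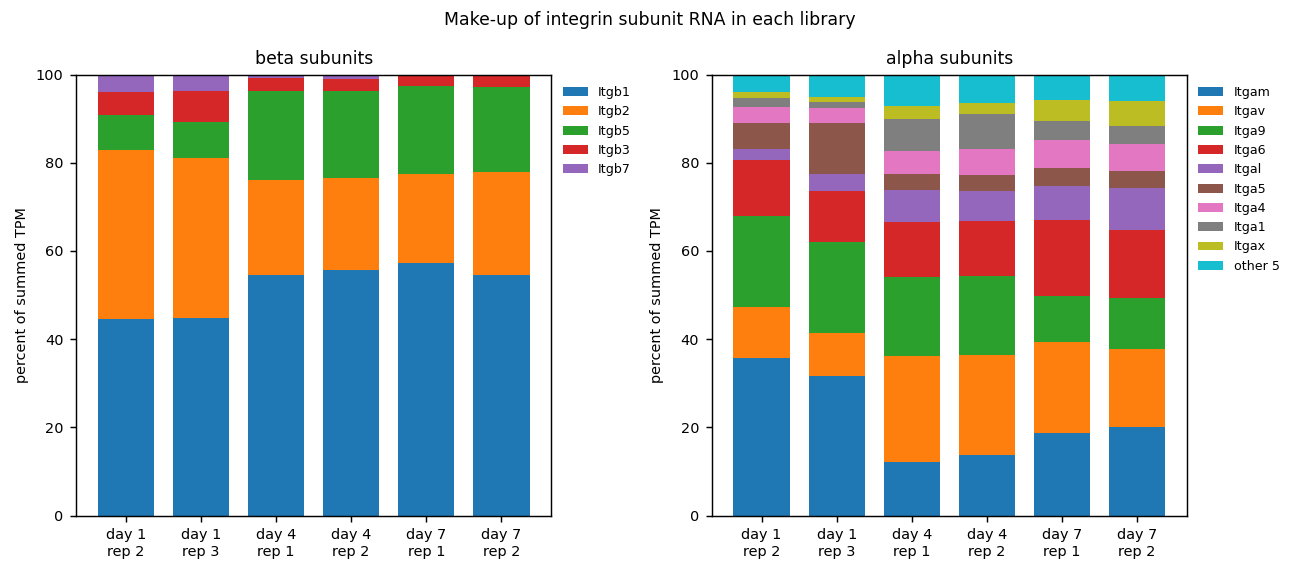
Percent of the summed TPM of beta subunits (left) and alpha subunits (right) held by each subunit in each of the 6 libraries, in day order. The Itgb2 share is larger on day 1 (38.2% and 36.4%) than in the later libraries (20.3% to 23.3%), and the Itgb5 share is smaller on day 1.

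**Figure D4:**
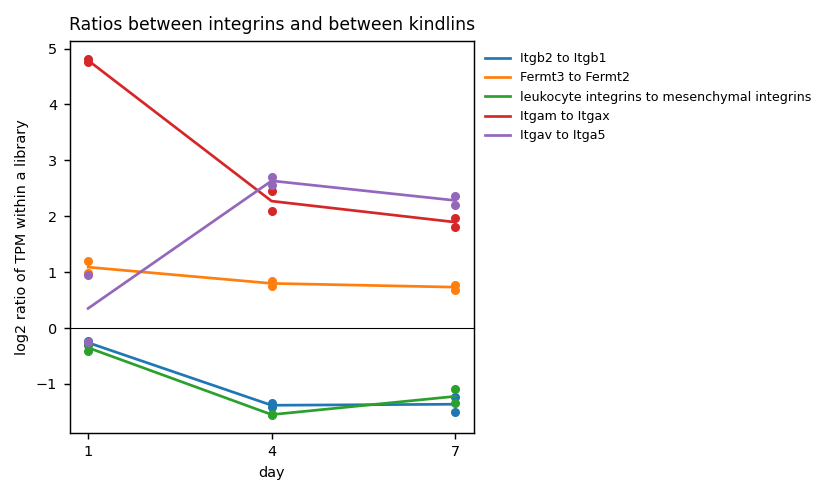
Log2 ratio of TPM between paired genes or gene sums within a library against day, with 1 point per library and lines through the mean of each day. The ratio of Itgam to Itgax is 4.76 and 4.82 on day 1 and 1.82 to 2.45 later, the ratio of Itgb2 to Itgb1 is -0.23 and -0.30 on day 1 and -1.495 to -1.231 later, and the day 1 points of Itgav to Itga5 lie far apart (0.96 and -0.25).

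Of 4 epithelial or platelet subunits, 1 rose on day 4 and 2 rose on day 7. Itga2, a collagen receptor subunit of epithelium and platelets, had 1.89 and 1.55 TPM on day 1, 8.86 and 4.73 TPM on day 4, and 4.598 and 5.984 TPM on day 7. It rose by 1.47 on day 4 (SE 0.29, adjusted p = 0.0107) and 1.202 on day 7 (adjusted p = 0.019). The day 7 call was lost without day 1 replicate 3 (adjusted p = 0.0595) or either day 7 library (adjusted p = 0.071 and 0.12). Mesothelial and bile duct markers summed to 32.7 to 42.3 TPM on day 1, 170 to 178 TPM on day 4 and 706 to 747 TPM on day 7, and 9 of 10 tested rose on day 4. Most of this sum was Spp1, which is also an integrin ligand gene, with 30.6 and 22.9 TPM on day 1, 121 and 120 TPM on day 4, and 619 and 676 TPM on day 7. The other 10 listed markers summed to 11.7 and 9.88 TPM on day 1, 56.6 and 50.6 TPM on day 4, and 87.1 and 70.7 TPM on day 7. Their part in the change of Itga2 was not tested.

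Itga6, the laminin receptor subunit also found on endothelium, had 56.3 and 66.9 TPM on day 1, 64.3 and 65.8 TPM on day 4, and 96.7 and 88.6 TPM on day 7. It rose by 0.58 on day 7 against day 1 (SE 0.12, adjusted p = 0.0118), a call lost without the satellite-like models (0.23, adjusted p = 0.236) or without day 7 replicate 1 (adjusted p = 0.0937) or replicate 2 (adjusted p = 0.0588). Itga3, another laminin receptor subunit, had 9.58 and 20.2 TPM on day 1, 13.2 and 13.5 TPM on day 4, and 18.2 and 18.7 TPM on day 7, with no call. Its day 4 change of -0.06 became 0.44 (adjusted p = 0.0302) when day 1 replicate 3 was left out and -0.56 (adjusted p = 0.00847) when day 1 replicate 2 was left out, so the sign depended on 1 library. The platelet subunit gene Itga2b stayed between 1.11 and 2.56 TPM. The 8 genes that missed the minimum were Itga10, Itga11, Itgae, Itgb2l, Itgb4, Itgb6, Itgb8 and the integrin-like Itgbl1, and the highest value among them was 1.05 TPM, for Itga10 in day 1 replicate 3.

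Of the 4 integrin activators, 2 rose on day 4 and none fell. Tln2, the talin of muscle and brain, had 1.93 and 2.00 TPM on day 1, 8.17 and 9.09 TPM on day 4, and 6.08 and 6.51 TPM on day 7, and rose by 1.70 (SE 0.15, adjusted p = 0.000524) and 1.30 (adjusted p = 0.00122). The widespread Tln1 was far more abundant, with 139 and 193 TPM on day 1, 190 and 196 TPM on day 4, and 195 and 201 TPM on day 7. It was not called with all 6 libraries. With day 1 replicate 3 left out it rose by 0.47 on day 4 (adjusted p = 0.00345) and 0.50 on day 7 (adjusted p = 0.00239), whereas with day 1 replicate 2 left out the changes were 0.0047 (adjusted p = 0.954) and 0.04 (adjusted p = 0.584).

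The kindlin genes showed small changes. Fermt2, the kindlin of most adherent cells, had 77.9 and 79.1 TPM on day 1, 104 and 99.5 TPM on day 4, and 91.3 and 100 TPM on day 7. Its day 4 increase of 0.37 (SE 0.10, adjusted p = 0.0343) missed the threshold after every rescaling (0.02 to 0.22, adjusted p = 0.124 to 0.894) and without any one of the later libraries (adjusted p = 0.0753 to 0.207). Fermt3, the kindlin of blood cells, was higher than Fermt2 in all libraries, with 179 and 156 TPM on day 1, 176 and 178 TPM on day 4, and 156 and 161 TPM on day 7. It was not called as deposited (0.09 and -0.07), and without the satellite-like models it was lower on day 4 (-0.27, adjusted p = 0.0458) and day 7 (-0.43, adjusted p = 0.00949). With day 1 replicate 2 left out it was higher on day 4 (0.19, adjusted p = 0.0467), so its direction depended on these choices. Within a library Fermt3 stood 2.30 and 1.97 times above Fermt2 on day 1, 1.69 and 1.79 times on day 4, and 1.71 and 1.61 times on day 7.

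Of 12 adaptors and kinases, 5 rose and none fell on day 4, and 4 rose and 2 fell on day 7. Vcl, which encodes vinculin, the link from talin to actin (chromosome 14, 20929398 to 21033676), had 20.7 and 29.3 TPM on day 1, 60.4 and 62.6 TPM on day 4, and 70.6 and 67.6 TPM on day 7. It rose by 1.28 on day 4 (SE 0.17, adjusted p = 0.00242) and 1.45 on day 7 (adjusted p = 0.00127), or 0.94 and 1.11 without the satellite-like models, and kept both calls without any single library. On the opposite strand Ap3m1 covers 25.5% of the Vcl exon bases, with 56.4 to 87.7 TPM, and whether strand was used in the quantification was not stated in the labels.

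The ILK-PINCH complex moved unequally. Ilk, the pseudokinase at its centre, had 67.9 and 62.7 TPM on day 1, 118 and 117 TPM on day 4, and 117 and 118 TPM on day 7, and rose by 0.84 on both days (SE 0.10, adjusted p = 0.00171 and 0.00147), or by 0.49 on both without the satellite-like models. Taf10 lies opposite to 76.8% of the Ilk exon bases with 88.0 to 156 TPM, so the Ilk value is uncertain if strand was not used. Lims2, which encodes PINCH-2, had 3.60 and 5.76 TPM on day 1, 16.9 and 17.1 TPM on day 4, and 27.3 and 22.9 TPM on day 7. It rose by 1.69 on day 4 (SE 0.21, adjusted p = 0.00188) and 2.22 on day 7 (adjusted p = 0.000561). Lims1, which encodes PINCH-1, was more abundant and changed little, with 72.6 and 64.4 TPM on day 1, 85.4 and 87.5 TPM on day 4, and 83.3 and 84.3 TPM on day 7. Its day 4 increase of 0.33 (adjusted p = 0.0499) became -0.02 (adjusted p = 0.872) without the satellite-like models and was lost without any one of the later libraries (adjusted p = 0.111 to 0.243). Parva, which encodes a parvin, had 16.6 and 28.8 TPM on day 1 and 26.7 to 28.0 TPM later, and was not called with all 6 libraries. Its day 4 change was 0.70 with day 1 replicate 3 left out and -0.06 with day 1 replicate 2 left out, so its sign depended on 1 library.

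Bcar1, the p130Cas scaffold that is phosphorylated when a cell is stretched, had 22.9 and 25.3 TPM on day 1, 52.1 and 50.05 TPM on day 4, and 42.5 and 43.5 TPM on day 7. It rose by 1.05 on day 4 (SE 0.10, adjusted p = 0.000828) and 0.81 on day 7 (adjusted p = 0.0019), or 0.71 and 0.47 without the satellite-like models. Of its partner kinases, Src was lower on day 7 and Ptk2 was not called. Src had 24.7 and 29.3 TPM on day 1, 19.8 and 21.9 TPM on day 4, and 19.1 and 16.9 TPM on day 7, and fell by 0.56 on day 7 (SE 0.14, adjusted p = 0.0212), or by 0.90 without the satellite-like models. Ptk2, which encodes focal adhesion kinase, had 74.995 and 84.3 TPM on day 1, 102 and 96.0 TPM on day 4, and 97.3 and 99.1 TPM on day 7, with no call (0.31, adjusted p = 0.0654 on day 4). It was called higher on day 4 when day 1 replicate 2 or 3 was left out (adjusted p = 0.0449 and 0.0116), and its day 4 change was -0.04 without the satellite-like models. Both day 4 libraries lay above day 1, and the difference between Ptk2 and Bcar1 was not tested.

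The paxillin gene Pxn had 54.6 and 67.8 TPM on day 1, 50.8 and 45.9 TPM on day 4, and 39.9 and 42.4 TPM on day 7. It fell by 0.55 on day 7 (SE 0.14, adjusted p = 0.0211), or by 0.90 without the satellite-like models. Leaving out either day 7 library ended the day 7 calls of Pxn (adjusted p = 0.127 and 0.092) and of Src (adjusted p = 0.0746 and 0.131). On day 4 both genes were called lower after each rescaling (Pxn -0.68 to -0.47, Src -0.70 to -0.47, adjusted p = 0.0243 to 0.0495). Zyx, which encodes zyxin, a sensor of strained actin, had 44.5 and 75.3 TPM on day 1, 37.4 and 34.9 TPM on day 4, and 44.7 and 43.2 TPM on day 7. It was not called as deposited (-0.67 on day 4, adjusted p = 0.067) and was lower on day 4 after each rescaling (-1.02 to -0.81, adjusted p = 0.0362 to 0.0496). The tensin genes Tns1 and Tns3 had 41.4 to 58.5 TPM and 55.0 to 84.2 TPM over the 6 libraries, and neither was called with all 6 libraries at the deposited scale.

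**Figure D5:**
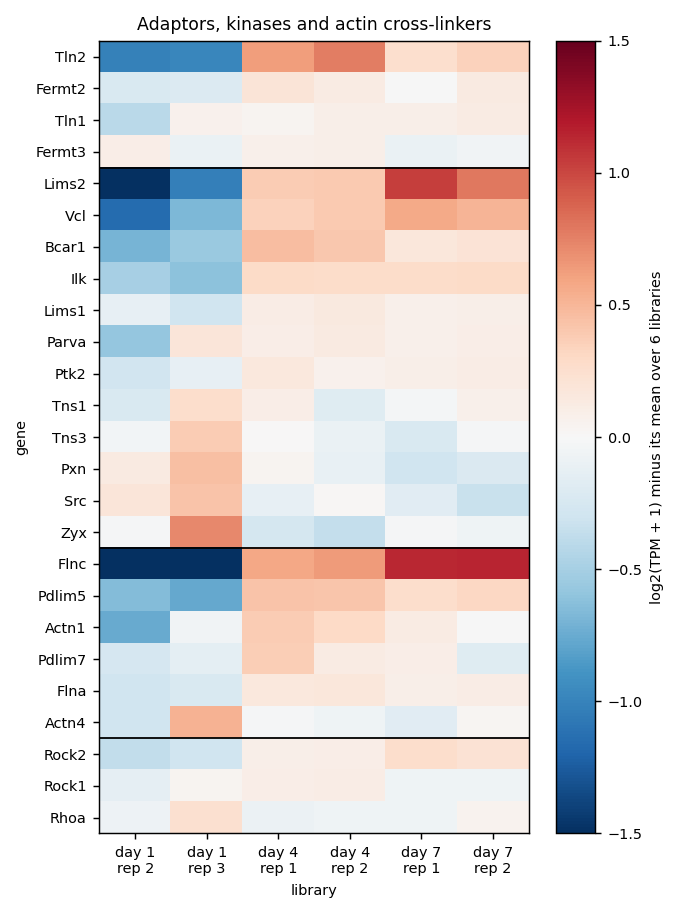
Log2(TPM + 1) of the 25 listed genes in each library, minus the mean of that gene over 6 libraries, with days from left to right and lines between groups. Colours are clipped beyond 1.5 in either direction. Tln2, Lims2, Vcl and Flnc are low in both day 1 libraries, and Zyx, Actn4 and Parva differ between the 2 day 1 libraries.

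Actin cross-linker genes rose in part. Of 6 in this group 4 rose on day 4 and 2 rose on day 7, and none fell. Flnc, the filamin of muscle, had 0.69 and 1.04 TPM on day 1, 8.23 and 8.65 TPM on day 4, and 12.6 and 12.6 TPM on day 7. This was the largest increase of the 44 genes on either day, 2.35 on day 4 (SE 0.16, adjusted p = 0.000206) and 2.88 on day 7 (adjusted p = 8.18e-05), and it was called under each alternative. Pdlim5, a Z-line and stress fibre adaptor of alpha-actinin, had 71.9 and 65.9 TPM on day 1, 152 and 152 TPM on day 4, and 136 and 141 TPM on day 7. It rose by 1.13 (SE 0.10, adjusted p = 0.000644) and 1.00 (adjusted p = 0.000862), or 0.78 and 0.65 without the satellite-like models.

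The abundant cross-linkers changed less. Flna, the widespread filamin, had 319 and 336 TPM on day 1, 436 and 442 TPM on day 4, and 415 and 424 TPM on day 7. Its day 4 increase of 0.42 (SE 0.12, adjusted p = 0.0333) was 0.07 without the satellite-like models (adjusted p = 0.647) and was lost without any one of the later libraries (adjusted p = 0.0953 to 0.214). Actn1, the alpha-actinin of stress fibres, had 99.1 and 162 TPM on day 1, 219 and 206 TPM on day 4, and 183 and 167 TPM on day 7. Its day 4 increase of 0.74 (SE 0.23, adjusted p = 0.0474) was 0.39 without the satellite-like models (adjusted p = 0.287) and was lost without any one of the later libraries (adjusted p = 0.1 to 0.184). Actn4, the other non-muscle alpha-actinin, had 139 and 245 TPM on day 1 and 151 to 175 TPM later. Its day 4 change was -0.15, or -0.56 without day 1 replicate 2 (adjusted p = 0.00692), and 0.26 without day 1 replicate 3 (adjusted p = 0.101), so its sign depended on 1 library. Pdlim7, the LIM protein enigma, had 36.9 and 39.6 TPM on day 1, 57.2 and 48.1 TPM on day 4, and 47.4 and 38.8 TPM on day 7, and missed the threshold on day 4 (0.45, adjusted p = 0.0534).

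Of RhoA and its kinases, which drive actomyosin contraction, Rock2 was called. Rock2 had 53.4 and 56.3 TPM on day 1, 73.8 and 74.7 TPM on day 4, and 83.7 and 81.1 TPM on day 7. It rose by 0.43 on day 4 (SE 0.10, adjusted p = 0.0168) and 0.58 on day 7 (adjusted p = 0.00513). Both calls were lost when the satellite-like models were left out (0.08, adjusted p = 0.581, on day 4 and 0.23, adjusted p = 0.128, on day 7), the day 4 call without any one of the later libraries (adjusted p = 0.0511 to 0.13) and the day 7 call without day 7 replicate 1 (adjusted p = 0.0537). Rock1 stayed between 50.5 and 59.8 TPM and Rhoa between 192 and 240 TPM, with no call as deposited in any comparison.

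On day 7 against day 4, calls rested on which libraries set the spread. Fitted on the 4 libraries of those days alone, 3 of the 44 genes rose and 4 fell. The fit of all 6 libraries called 1 of the 44, Itgb7. Over all 14373 genes the smaller fit called 265 higher and 344 lower, 4.24% together, beside 0.466% in the fit of all 6 libraries. The within-day SD of log2(TPM + 1), pooled over the 44 genes, was 0.32 for day 1, 0.13 for day 4 and 0.11 for day 7. Itgax (1.04, adjusted p = 0.0241), Itgam (0.71, adjusted p = 0.0272) and Itga6 (0.50, adjusted p = 0.0273) were higher on day 7 in the smaller fit. Itgb7 (-1.28, adjusted p = 0.0203), Itga8 (-0.94, adjusted p = 0.0247), Itga1 (-0.76, adjusted p = 0.0203) and Itga9 (-0.57, adjusted p = 0.0326) were lower. All 7 were integrins. In the fit of all 6 libraries Itga1 and Itga8 had adjusted p = 0.0662 each and Itgax had adjusted p = 0.0653.

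Promoters were read for motifs of factors known to act on cytoskeletal and leukocyte genes. The RefSeq promoter table (GRCm38.p6) held 41 windows for 33 of the 44 genes, each from 250 bases before to 50 bases after a start site. The CArG box, which serum response factor binds, was searched on both strands and found in 2 of the 41 windows, those of Vcl and Fermt2, beside 1.63% of all 32851 windows. The TEAD motif GGAATG was in 6 of the 41 windows (14.6%), beside 14.7% of all windows. Overlapping windows of Flnc hold the same TEAD site, which was counted in each. The PU.1 motif GAGGAAGT was in 3 of the 41 (7.32%), those of Itgav, Itgb7 and Lims1, beside 3.2% of all. None of the printed matches overlapped another. A match is a description of these letters, not of binding. The stretches shown hold the CArG boxes of Vcl, which rose, and of Fermt2, whose call depended on scaling, and the TEAD motifs of Flnc, the largest increase, and of Itgb1, the most abundant integrin. Capitals mark the motif, on either strand, and each stretch has 100 bases read toward the gene, from chr14:20929148-20929247 (+), chr14:45530216-45530315 (-), chr6:29433106-29433205 (+) and chr8:128685554-128685653 (+) in the order given.
Vcl: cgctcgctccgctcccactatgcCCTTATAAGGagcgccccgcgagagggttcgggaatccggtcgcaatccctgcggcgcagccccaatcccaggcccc
Fermt2: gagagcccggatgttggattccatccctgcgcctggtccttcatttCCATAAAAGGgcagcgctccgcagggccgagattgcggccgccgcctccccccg
Flnc: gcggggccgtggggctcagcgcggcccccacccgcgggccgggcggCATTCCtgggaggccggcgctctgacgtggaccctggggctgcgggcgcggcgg
Itgb1: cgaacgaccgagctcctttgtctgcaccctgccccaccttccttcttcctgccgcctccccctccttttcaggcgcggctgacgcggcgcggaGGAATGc
The CArG box began 227 bases upstream of the Vcl start site and 204 bases upstream of the Fermt2 start site. The TEAD motif began 104 bases upstream of 1 of the Flnc start sites and 7 bases upstream of the Itgb1 start site.

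A wider list of focal adhesion genes outside the 44 stood near the background. Of 63 tested, 18 rose and 10 fell on day 4 and 14 rose and 10 fell on day 7, with median log2 changes of 0.08 and -0.02. The 3 largest changes on both days were in Fhl1 and Fhl2, LIM-only proteins of muscle and focal adhesions, and in Mylk, myosin light chain kinase. Fhl1 had 8.34 and 9.19 TPM on day 1, 140 and 128 TPM on day 4, and 153 and 127 TPM on day 7, an increase of 3.78 on day 4 (SE 0.13, adjusted p = 2.36e-05). Fhl2 rose by 3.26 on day 4 and 3.56 on day 7, and Mylk by 2.65 and 2.53.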

How the data were processed

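RNA of 6 libraries of primary mouse hepatic stellate cells was sequenced. The values the authors deposited are TPM for each gene symbol. Trimmomatic, HISAT2 2.0.5, StringTie 1.3.3b and the builds mm10 and GRCm38 are named in the submitters' processing notes, with no role or order. The annotation, the use of strand and how genes were summed are not stated there. TPM keeps no depth, so no counting error was computed.

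The 14373 genes that reached 1 TPM in 2 or more libraries were fitted as log2(TPM + 1), which understates changes of low genes. Day was a factor in limma 3.58.1 (R 4.3.3), with trended, robust variances, 3 residual degrees of freedom and Benjamini-Hochberg adjustment within a comparison. Calls had adjusted p under 0.05. The fit was tested on simulated data. The 12 satellite-like models share at least 10% of their 20-base words with Gm10800. Coordinates are from GENCODE M21 and promoters from RefSeq. Every gene meeting the membership rule could be named. Members and lists were chosen with earlier results of these data known, as were the ratios of Itgam to Itgax and of Itgav to Itga5. The labels name no batch. Alternatives were other pseudocounts, filters, scalings, variance models and thresholds, a replicate term, fits of only the days compared, and single libraries left out.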

Additional observations from a re-analysis of the deposited data

How the results depend on the processing

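Of 2235 recomputed changes of single genes, 2037 kept their side of the threshold and, where called, their direction, 115 lost a call, 80 gained one and 3 reversed, while 69 uncalled ones changed sign. The reversals on day 4 against day 1 were Fermt3 (-0.27) and Lims1 (-0.018) without the satellite-like models and Itga3 (0.44) without day 1 replicate 3, which was -0.56 and called lower without day 1 replicate 2. On day 4 against day 1, where 3 members were lower, median-ratio scaling and quantile normalization gave 7 each and leaving out the satellite-like models gave 8. Over all genes 1667 were lower, and these scalings gave 2331, 2504 and 3388 in that order. A fold threshold of 1.2 left 3034 of 5257 genes called on day 4 and 3593 of 5956 on day 7 against day 1, where 3 members were then lower. Without the satellite-like models the day 4 medians were -0.021 over members, 0.39 over mesenchymal integrins, -0.19 over leukocyte integrins, -0.032 over adaptors and -0.21 over all genes, and the day 7 medians were 0.0047, 0.15, 0.052, -0.067 and -0.28. After quantile normalization the day 4 medians were 0.16 over members, 0.48 over mesenchymal integrins, -0.0088 over leukocyte integrins and -0.019 over all genes, and on day 7 0.26 over leukocyte integrins and -0.037 over all genes. After median-ratio scaling the day 4 medians were 0.0078 over leukocyte integrins and -0.023 over all genes, with -0.031 over all genes on day 7. Without a filter the median over all genes was -0.012 on day 4 and -0.030 on day 7, and with the stricter filter it was 0.078 on day 7.

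On day 7 against day 4, no member was called without a filter, after quantile normalization or at the fold threshold, and the stricter filter called 2 members, 1 of them higher. All genes called were then 4, 37 and 22 under the first 3 of these. Fitting only the days compared called 7 members, 3 higher and 4 lower, and 609 genes. The median over all genes was -0.010 without a filter, -0.0018 under quantile normalization and 0.011 under median-ratio scaling.

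Deviations from the day means correlated at 0.004, 0.067 and -0.056 between libraries of the same number. At 2 libraries per day these values cannot tell whether libraries of the same number share an origin, which the labels do not give. With the replicate block 24 members were called on day 4 and 26 on day 7 against day 1, with a members' median of 0.51 on day 7, and 0 members and 31 genes on day 7 against day 4.

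Leaving out 1 library gave 15 to 36 called members on day 4 against day 1 (13 to 25 higher, 2 to 13 lower) and 2196 to 7602 genes. On day 7 against day 1 it gave 15 to 31 members (14 to 23 higher, 1 to 11 lower) and 2684 to 7979 genes, with a members' median of 0.16 to 0.47. On day 7 against day 4 it gave 0 to 7 members (0 to 3 higher, 0 to 4 lower) and 0 to 546 genes, and the F test called 16 to 34 members. The causes were not tested.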

Other observations

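Ligands of integrins were listed apart from the members. Of 26 tested, 15 rose and 4 fell on day 4 against day 1, 15 rose and 6 fell on day 7 against day 1, and 1 rose and 1 fell on day 7 against day 4. Col3a1, a fibrillar collagen gene, had 4.24 and 4.43 TPM on day 1, 226 and 237 TPM on day 4, and 129 and 126 TPM on day 7. It rose by 5.45 on day 4 against day 1 and fell by 0.85 on day 7 against day 4 (limma, adjusted p = 0.033). Spp1, which encodes osteopontin, a ligand of alpha v and alpha 9 integrins, had 30.6 and 22.9 TPM on day 1, 121 and 120 TPM on day 4, and 619 and 676 TPM on day 7, and rose by 2.42 on day 7 against day 4 (limma, adjusted p = 0.0124). Tnc, which encodes tenascin-C, a ligand of alpha 9 beta 1, rose by 2.61 on day 4 and 2.67 on day 7 against day 1.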
